A study of Oryza sativa Japonica Group with 10 samples.

Results

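OsJAZ1-OE plants under drought were compared with drought-stressed wild-type ZH11 plants across all genes, and each difference was then examined against each of the ZH11 drought libraries separately. The comparison used the 4 drought libraries among 10 libraries in all, with 2 of OsJAZ1-OE and 2 of ZH11. OsJAZ1-OE is a line of the rice variety Zhonghua 11 (ZH11) that carries the OsJAZ1 coding sequence behind the drought-inducible OsLEA3-1 promoter, and the labels give all OsJAZ1-OE libraries as overexpression line 1 (OE-1). With 1 transgenic line, an effect of OsJAZ1 and any other difference between that line and ZH11 cannot be told apart. Both genotypes were sampled as shoots at the four-leaf stage after the soil had dried to a water content of 10 to 15%. The other 6 libraries, 3 of OsJAZ1-OE and 3 of ZH11 under normal conditions, shared in the estimate of spread and gave the comparison of the same genotypes without drought. By the study's account 1 more drought replicate of each genotype was sequenced and then set aside by the authors for its low correlation, and it was not used here. The 4 drought libraries were thus kept by their correlation, and their spread leaves out that of the replicates set aside. The methods call the replicates biological, but no source used here says what separates them (plants, barrels or days), so p values measure the spread between these libraries.

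JAZ proteins are repressors of jasmonate (JA) signaling that bind bHLH transcription factors of the MYC type, and they are degraded when the hormone, as its isoleucine conjugate, brings them to the receptor COI1. JAZ genes are themselves switched on by JA, so their transcripts follow the activity of the pathway. Abscisic acid (ABA) is the main hormone of water shortage, and it acts through PYL receptors, PP2C phosphatases, SnRK2 kinases and bZIP factors to switch on genes for dehydrins and other LEA proteins, which shield drying cells. DREB and NAC transcription factors drive a further set of drought and cold genes.

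OsJAZ1 (LOC_Os04g55920, chromosome 4, 33306461 to 33310232 in the coordinates of the files, for which no source used here names a genome build) was at 1388 and 1177 FPKM in OsJAZ1-OE drought replicates 1 and 2, against 147 and 126 FPKM in ZH11 drought replicates 1 and 2. FPKM is a fragment count scaled for transcript length and for the fragments mapped in the library. The groups did not overlap, and OsJAZ1 rose by 3.15 ± 0.08 (SE) on the log2 scale (adjusted p = 1.7e-09 in edgeR's quasi-likelihood test with Benjamini-Hochberg adjustment). Against ZH11 drought replicate 1 alone the log2 fold change was 3.08, and against replicate 2 alone it was 3.22. The counts do not distinguish transcripts of the transgene from those of the native gene.

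The deposited counts summed to 32396154 to 34027909 estimated fragments per library, on the authors' own scale. With 1 factor per library divided out, as described under processing, the totals were 35866343 and 28610377 in ZH11 drought replicates 1 and 2. In OsJAZ1-OE drought replicates 1 and 2 they were 36843282 and 32227329. Log2 FPKM values correlated at 0.991 between the OsJAZ1-OE drought libraries and at 0.989 between the ZH11 drought libraries (Pearson's r across genes, which are not independent replicates). Of 20740 genes with a mean over 1 FPKM, 381 differed at least 2-fold between the OsJAZ1-OE drought libraries and 680 between the ZH11 drought libraries, of which 442 were higher in ZH11 replicate 1 and 238 in ZH11 replicate 2. All 8 green shoot markers were measured and their summed level was 14860 and 14202 FPKM in OsJAZ1-OE and 15318 and 16074 FPKM in ZH11. Of 4 root markers, 3 were at 0 in all 4 drought libraries, and the silicon channel gene Lsi1 was at 7.02 and 8.41 FPKM in OsJAZ1-OE and at 10.1 and 11.6 FPKM in ZH11. The 3 markers of the dividing shoot base were under 1 FPKM in every drought library.

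Many more genes were higher than lower in OsJAZ1-OE. With both ZH11 drought libraries in the fit, 376 of 24850 genes tested were called higher (1.51%) and 54 were called lower (0.217%), where a call needed an adjusted p under 0.05 in edgeR's test and a fold change of at least 2. Against ZH11 drought replicate 1 alone, 305 genes were called higher (1.2%) and 193 lower (0.761%). Against replicate 2 alone, 289 were called higher (1.14%) and 48 lower (0.189%). In each of these fits the lone ZH11 drought library was assumed to vary like the libraries of the other groups. The p values of these fits therefore hold no spread between the ZH11 drought libraries. They can be too small for genes in which those libraries lie far apart. A difference held against each ZH11 library where the gene was called in the same direction in all 3 fits, which was so for 236 of the 376 genes called higher (0.95% of genes tested) and for 19 of the 54 called lower (0.0765%). Thus 62.8% of the genes called higher and 35.2% of those called lower held. Libraries of the genotypes did not overlap for 5910 genes (23.8%) in the higher direction and 5446 (21.9%) in the lower, so a lack of overlap is frequent in a comparison of 2 libraries with 2.

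The genes called lower depended most on which ZH11 library they were set against. Of the 193 genes called lower against replicate 1 alone, 33 were also called lower with both libraries and 19 against replicate 2 alone, and 117 had a fitted fold change in the opposite direction against replicate 2. Their median log2 fold change was −1.60 against replicate 1 and 0.18 against replicate 2. Of the 305 genes called higher against replicate 1 alone, 236 were also called higher against replicate 2 alone. For 12 genes the direction of the call itself turned, lower against replicate 1 and higher against replicate 2, and no gene turned the other way.

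**Figure D1:**
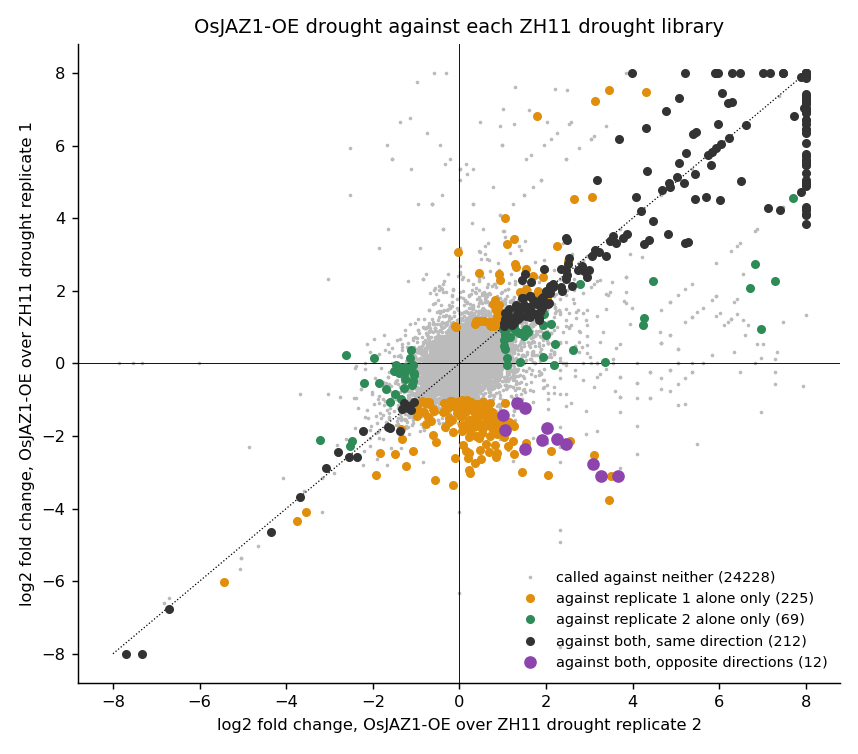
Log2 fold change of OsJAZ1-OE drought over ZH11 drought replicate 1 (vertical) and over ZH11 drought replicate 2 (horizontal), each point a gene, values beyond ±8 drawn at the edge, with the 103 genes at 0 fragments in both ZH11 libraries left out because their fitted values are not measured folds. Black points, called in the same direction against both libraries, follow the dotted line of equal values, while orange points, called against replicate 1 alone, spread below 0 on the vertical axis and lie on both sides of 0 on the horizontal axis, and the 12 purple points were called in opposite directions.

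The study names 9 other genes of the ABA, JA and drought responses, of which OsCCD1 was not analysed here. By quantitative real-time PCR, with error bars from 3 replicates, it reported all 9 as significantly lower in OsJAZ1-OE than in ZH11 under drought. The values here are from sequencing, a different measure, with 2 libraries per genotype. None of the remaining 8 passed with both ZH11 libraries in the fit, 5 passed as lower against replicate 1 alone, and against replicate 2 alone 3 passed as higher and 2 as lower (edgeR's test). These genes were chosen by the study on plants of these genotypes.

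OsbHLH148 (LOC_Os03g53020), a bHLH factor of JA signaling, was at 68.8 and 58.1 FPKM in OsJAZ1-OE drought replicates 1 and 2, against 359 and 31.98 FPKM in ZH11 drought replicates 1 and 2. The OsJAZ1-OE libraries lay between the ZH11 libraries. Its log2 fold change was −1.71 with both (standard error 0.70, adjusted p = 0.22 in edgeR's test), −2.58 against replicate 1 and 0.85 against replicate 2. OsbHLH006 (LOC_Os04g23550), another bHLH gene linked to JA signaling, was at 17.4 and 16.2 FPKM in OsJAZ1-OE, against 121 and 15.9 FPKM in ZH11. It fell by 3.03 on the log2 scale against ZH11 replicate 1, and the log2 fold change against replicate 2 was 0.24. With both libraries its value was −2.18 (adjusted p = 0.13 in edgeR's test). ZH11 replicate 1 alone stood high for both genes.

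OsDREB1A (LOC_Os09g35030) and OsDREB1B (LOC_Os09g35010), factors of the cold and dehydration response, lie close together on chromosome 9 and may share fragments. OsDREB1B was at 23.1 and 16.7 FPKM in OsJAZ1-OE, against 162 and 1.91 FPKM in ZH11. OsDREB1A was at 4.20 and 4.14 FPKM in OsJAZ1-OE, against 27.9 and 0.501 FPKM in ZH11. For both genes ZH11 replicate 1 was the highest of the 4 libraries and ZH11 replicate 2 the lowest. The log2 fold change of OsDREB1B was −3.11 against replicate 1 and 3.26 against replicate 2, and that of OsDREB1A was −2.77 and 3.08. With both libraries their values were −2.12 and −1.80 (adjusted p = 0.32 and 0.37 in edgeR's test). SNAC1 (LOC_Os03g60080), a NAC factor of guard cells and drought resistance, was at 260 and 231 FPKM in OsJAZ1-OE, against 724 and 280 FPKM in ZH11. It was lower than in both ZH11 libraries, by 1.62 on the log2 scale against replicate 1, while the value against replicate 2 was −0.24. With both libraries the SNAC1 value was −1.09 (adjusted p = 0.091 in edgeR's test).

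RAB21 and OsLEA3, downstream genes of ABA signaling, had the opposite order of the ZH11 libraries. RAB21 (LOC_Os11g26790), a dehydrin gene with close paralogs, was at 112 and 99.2 FPKM in OsJAZ1-OE, against 79.2 and 218 FPKM in ZH11. OsLEA3 (LOC_Os05g46480), a LEA protein gene of the kind whose promoter drives the transgene in this line, was at 78.6 and 65.8 FPKM in OsJAZ1-OE, against 80.0 and 198 FPKM in ZH11. Against replicate 2 alone RAB21 fell by 1.11 and OsLEA3 by 1.504 on the log2 scale, and against replicate 1 alone their values were 0.37 and −0.22. With both libraries their values were −0.55 and −0.999 (adjusted p = 0.41 and 0.096 in edgeR's test). OsNCED4 (LOC_Os07g05940), which cleaves carotenoids on the way to ABA, was at 23.1 and 6.97 FPKM in OsJAZ1-OE, against 25.9 and 15.9 FPKM in ZH11. Its ZH11 libraries had the order seen in the bHLH and DREB genes, with replicate 1 above replicate 2. The genotypes overlapped, and the log2 fold change was −0.55 (standard error 0.42, adjusted p = 0.53 in edgeR's test).

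**Figure D2:**
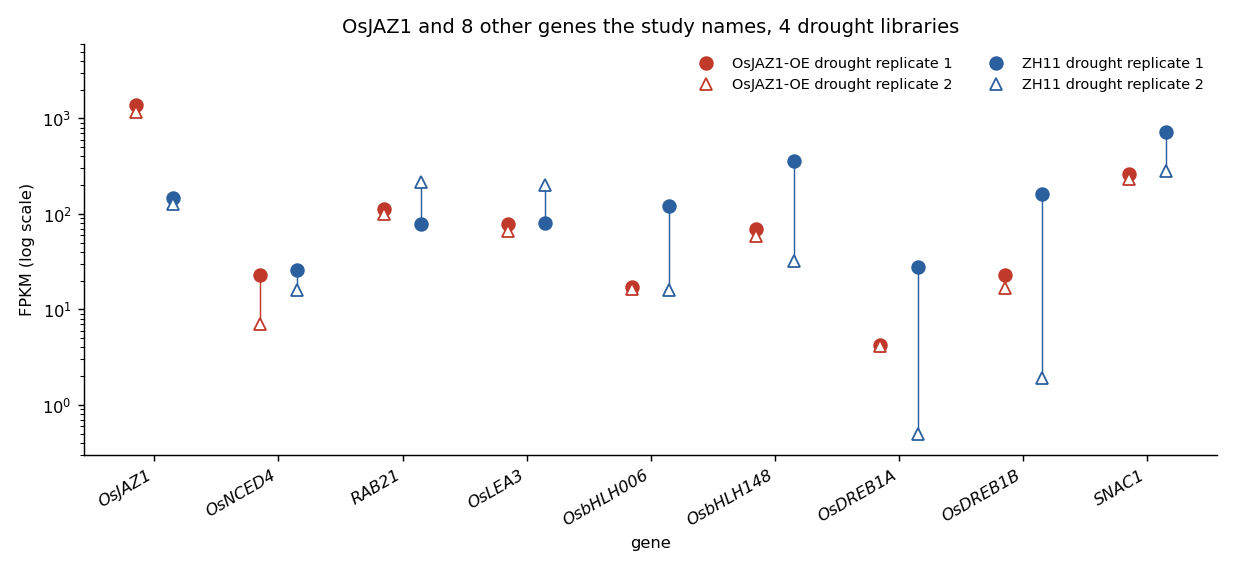
FPKM on a log axis of OsJAZ1 and 8 of the other genes the study names (OsCCD1 is not drawn), with OsJAZ1-OE drought libraries in red on the left of each gene and ZH11 drought libraries in blue on the right, filled circles for replicate 1 and open triangles for replicate 2, the replicates joined by a line. The OsJAZ1 values of the genotypes lie far apart (1388 and 1177 against 147 and 126 FPKM), whereas for OsbHLH148, OsDREB1A and OsDREB1B the line between the ZH11 replicates runs past both OsJAZ1-OE values.

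Gene lists were counted at an adjusted p under 0.05 in edgeR's test with no fold limit, at which 633 genes passed as higher (2.55%) and 282 as lower (1.13%) with both ZH11 libraries, 455 (1.79%) and 603 (2.38%) against replicate 1 alone, and 376 (1.48%) and 169 (0.666%) against replicate 2 alone. The median log2 fold change over all genes was 0.01, 0.02 and −0.00 in these fits. The order of the replicates is given below for list members only, since it was not counted over all genes.

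Of 10 measured JAZ genes other than OsJAZ1, 1 passed as lower with both libraries, 5 passed as lower against replicate 1 alone and none passed against replicate 2 alone. Their median log2 fold change was −0.58 with both libraries, −0.88 against replicate 1 and 0.30 against replicate 2. All 10 were higher in ZH11 replicate 1 than in ZH11 replicate 2, and 9 were higher in OsJAZ1-OE replicate 1 than in OsJAZ1-OE replicate 2. The median log2 ratio of replicate 1 over replicate 2 was 1.04 in ZH11 and 0.28 in OsJAZ1-OE. OsJAZ10 (LOC_Os03g08330) was at 82.8 and 67.6 FPKM in OsJAZ1-OE, against 370 and 51.8 FPKM in ZH11. OsJAZ12 (LOC_Os10g25290) was at 45.8 and 35.9 FPKM in OsJAZ1-OE, against 101 and 27.6 FPKM in ZH11. In both genes the OsJAZ1-OE libraries lay between the ZH11 libraries. OsJAZ8 (LOC_Os09g26780) was at 32.1 and 34.6 FPKM in OsJAZ1-OE, against 50.1 and 41.6 FPKM in ZH11, and was the member that fell with both libraries, by 0.44 on the log2 scale (adjusted p = 0.046 in edgeR's test). This decrease did not pass in 9 of 18 alternative fits. That decrease did not pass against replicate 2 alone (−0.32, adjusted p = 0.22).

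Of 23 measured genes for JA synthesis and perception, OsOPR1 (LOC_Os06g11290), which belongs to the family of oxophytodienoate reductases, was the 1 that passed with both libraries. It was at 16.1 and 14.2 FPKM in OsJAZ1-OE, against 57.9 and 22.5 FPKM in ZH11, with no overlap. OsOPR1 did not pass in 9 of 18 alternative fits. It fell by 1.45 on the log2 scale with both libraries (adjusted p = 0.034) and by 1.98 against replicate 1 (adjusted p = 1.7e-05), and its value against replicate 2 was −0.61 (adjusted p = 0.073 in edgeR's test). Against replicate 1 alone 3 genes of the list passed as lower, and none passed against replicate 2 alone. Beside OsOPR1 these were OsAOS1 (LOC_Os03g55800), an allene oxide synthase, at 15.5 and 12.6 FPKM in OsJAZ1-OE, against 21.8 and 11.1 FPKM in ZH11, and the lipoxygenase gene LOC_Os04g37430, at 7.92 and 6.25 FPKM in OsJAZ1-OE, against 16.7 and 4.72 FPKM in ZH11. They fell by 0.69 and 1.33 on the log2 scale against replicate 1 (adjusted p = 0.024 and 0.0013), and against replicate 2 their values were 0.38 and 0.55 (adjusted p = 0.29 and 0.21 in edgeR's test). The other genes of the list passed in none of the 3 fits. Among them OsOPR7 (LOC_Os08g35740), another oxophytodienoate reductase gene, was at 47.9 and 44.5 FPKM in OsJAZ1-OE, against 41.6 and 36.3 FPKM in ZH11. The allene oxide cyclase gene OsAOC (LOC_Os03g32314) was at 49.7 and 47.3 FPKM in OsJAZ1-OE, against 44.8 and 40.9 FPKM in ZH11, and the conjugating enzyme gene OsJAR1 (LOC_Os05g50890) was at 25.9 and 29.3 FPKM in OsJAZ1-OE, against 27.6 and 24.8 FPKM in ZH11. The 3 measured JA-linked bHLH genes all passed as lower against replicate 1 alone, and OsbHLH148 passed as higher against replicate 2 alone. OsMYC2 (LOC_Os10g42430), the MYC factor of the list, was at 39.7 and 36.0 FPKM in OsJAZ1-OE, against 54.1 and 38.0 FPKM in ZH11, and its log2 fold change was −0.30 with both libraries (adjusted p = 0.27 in edgeR's test).

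The drought transcription factors showed the same dependence on the ZH11 library. Of 8 measured DREB genes none passed with both libraries, 6 passed as lower against replicate 1 and 2 as higher against replicate 2, and their medians were −2.51 and 2.16 on the log2 scale. Of 8 stress NAC genes 4 passed as lower against replicate 1 and 1, OsNAC3, as higher against replicate 2. Of 15 WRKY genes, factors of defence and stress, 6 passed as lower against replicate 1 and 1, OsWRKY24, as higher against replicate 2. ZH11 replicate 1 was above ZH11 replicate 2 in 7 of the DREB, all 8 of the NAC and 14 of the WRKY genes. OsJAZ1-OE replicate 1 was above OsJAZ1-OE replicate 2 in 4, 8 and 15 of them. The median log2 ratios of replicate 1 over replicate 2 were 3.82, 0.56 and 0.66 in ZH11 and −0.00, 0.31 and 0.51 in OsJAZ1-OE. OsWRKY71 (LOC_Os02g08440) was at 44.2 and 29.1 FPKM in OsJAZ1-OE, against 123 and 25.4 FPKM in ZH11, and OsNAC6 (LOC_Os01g66120) was at 126 and 95.3 FPKM in OsJAZ1-OE, against 201 and 122 FPKM in ZH11.

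None of the 9 measured genes for LEA proteins and dehydrins passed with both libraries or against replicate 1 alone, and 3 passed as lower against replicate 2 alone. Their median log2 fold change was 0.31 against replicate 1 and −0.86 against replicate 2, and all 9 were lower in ZH11 replicate 1 than in ZH11 replicate 2. In OsJAZ1-OE the order was the other way, with 8 of the 9 higher in replicate 1 than in replicate 2. RAB16B (LOC_Os11g26780), a dehydrin gene, was at 32.3 and 30.3 FPKM in OsJAZ1-OE, against 23.5 and 50.02 FPKM in ZH11. WSI18 (LOC_Os01g50910), a LEA gene, was at 135 and 72.1 FPKM in OsJAZ1-OE, against 107 and 178 FPKM in ZH11. In the first of these the OsJAZ1-OE libraries lay between the ZH11 libraries, and in the other the genotypes overlapped.

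Few genes of the ABA pathway upstream of these passed. No gene among 7 for ABA synthesis and breakdown, 6 receptors, 9 clade A PP2C phosphatases, 10 SnRK2 kinases and 5 ABA-linked bZIP factors passed with both libraries or against replicate 2 alone. Against replicate 1 alone 2 passed as lower. These were OsABA8ox1 (LOC_Os02g47470), which breaks ABA down, at 10.6 and 7.65 FPKM in OsJAZ1-OE, against 29.1 and 5.60 FPKM in ZH11, and the phosphatase gene OsPP2C08 (LOC_Os01g46760), at 44.7 and 40.3 FPKM in OsJAZ1-OE, against 51.5 and 43.1 FPKM in ZH11. The log2 fold changes of the SnRK2 genes lay between −0.22 and 0.16 with both libraries.

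Heat shock genes, which encode chaperones and their regulators, were lower in OsJAZ1-OE in a part of the list. Of 22 measured genes 4 passed as lower with both libraries, 1 passed as lower and 1 as higher against replicate 1 alone, and 7 passed as lower against replicate 2 alone, with medians of −0.74, −0.48 and −0.998 on the log2 scale. All 22 were lower in ZH11 replicate 1 than in ZH11 replicate 2, and 2 were higher in OsJAZ1-OE replicate 1 than in OsJAZ1-OE replicate 2. The median log2 ratio of replicate 1 over replicate 2 was −0.62 in ZH11 and −0.45 in OsJAZ1-OE. OsHsfA2c (LOC_Os10g28340), a heat shock factor, was at 16.6 and 23.4 FPKM in OsJAZ1-OE, against 29.8 and 41.6 FPKM in ZH11, with no overlap, and was the 1 gene that passed in all 3 fits. It fell by 0.86 on the log2 scale with both libraries (standard error 0.16, adjusted p = 0.013), by 0.59 against replicate 1 (adjusted p = 0.048) and by 1.09 against replicate 2 (adjusted p = 0.0022 in edgeR's test). OsHsfA2c did not pass in 2 of 18 alternative fits, 1 of them without OsJAZ1-OE drought replicate 1 (adjusted p = 0.0995 in edgeR's test). The small heat shock protein gene LOC_Os03g15960 was at 148 and 174 FPKM in OsJAZ1-OE, against 285 and 460 FPKM in ZH11, and fell by 1.20 (adjusted p = 0.022 in edgeR's test). This gene did not pass in 5 of 18 alternative fits. Against replicate 1 alone its value was −0.84 (adjusted p = 0.087).

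**Figure D3:**
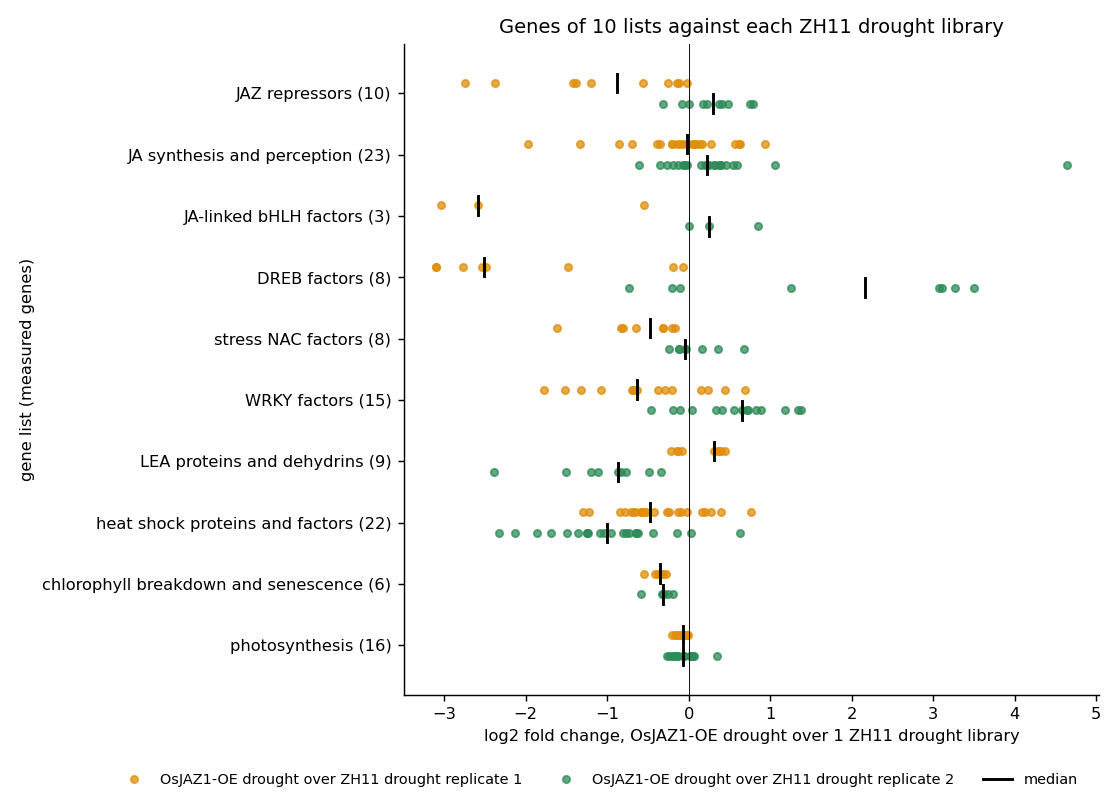
Log2 fold change of OsJAZ1-OE drought over ZH11 drought replicate 1 (orange) and over ZH11 drought replicate 2 (green) for the measured genes of 10 lists, each point a gene and each black bar the median. DREB factors have medians of −2.51 and 2.16 and LEA genes of 0.31 and −0.86, on opposite sides of 0, while the 16 photosynthesis genes lie close to 0 against both libraries.

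Of 9 measured genes that remove reactive oxygen (catalases, superoxide dismutases and ascorbate peroxidases), 1 passed as higher with both libraries, 2 against replicate 1 alone and 1 against replicate 2 alone, none passed as lower, and the medians were −0.02, 0.09 and −0.12 on the log2 scale. The ascorbate peroxidase gene OsAPX8 (LOC_Os02g34810) was at 82.8 and 84.0 FPKM in OsJAZ1-OE, against 101 and 98.0 FPKM in ZH11, a log2 fold change of −0.27 (adjusted p = 0.054 in edgeR's test). The 1 that passed was catalase CatA (LOC_Os02g02400), which removes hydrogen peroxide, at 399 and 355 FPKM in OsJAZ1-OE, against 278 and 236 FPKM in ZH11. The groups did not overlap, and CatA rose by 0.54 on the log2 scale with both libraries (standard error 0.09, adjusted p = 0.0078), by 0.44 against replicate 1 (adjusted p = 0.037) and by 0.65 against replicate 2 (adjusted p = 0.0075 in edgeR's test). CatA did not pass in 2 of 18 alternative fits, 1 of them without OsJAZ1-OE drought replicate 1 (adjusted p = 0.0713 in edgeR's test). CatA and OsHsfA2c were the list genes, OsJAZ1 apart, that passed in the same direction in all 3 fits. Under normal conditions CatA differed by 0.13 (adjusted p = 0.41 in edgeR's test).

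Of 6 measured genes of chlorophyll breakdown, 2 passed as lower with both libraries and the medians were close in every fit (−0.33, −0.36 and −0.31 on the log2 scale). NOL (LOC_Os03g45194), a chlorophyll b reductase of this pathway, was at 44.8 and 49.0 FPKM in OsJAZ1-OE, against 69.5 and 68.6 FPKM in ZH11. NOL did not pass in 5 of 18 alternative fits. It fell by 0.57 with both libraries (adjusted p = 0.026), while its values of −0.55 against replicate 1 and −0.58 against replicate 2 did not pass (adjusted p = 0.070 and 0.079 in edgeR's test). PAO (LOC_Os03g05310), which opens the chlorophyll ring, was at 65.4 and 59.0 FPKM in OsJAZ1-OE, against 84.5 and 78.8 FPKM in ZH11, and fell by 0.38 with both libraries (adjusted p = 0.028 in edgeR's test). PAO did not pass in 4 of 18 alternative fits. Against replicate 1 alone it fell by 0.42 (adjusted p = 0.039), while against replicate 2 alone its value of −0.33 did not pass (adjusted p = 0.13 in edgeR's test). None of 16 photosynthesis genes and none of 11 cell cycle and DNA replication genes passed in any of the 3 fits. Of the cell cycle genes 8 were under 1 FPKM in all 4 libraries.

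Among 7 measured pathogenesis-related and chitinase genes 1 passed as higher. OsPR1a (LOC_Os07g03710), a marker of defence, was at 54.0 and 56.2 FPKM in OsJAZ1-OE, against 12.7 and 18.3 FPKM in ZH11, with no overlap. It rose by 1.77 on the log2 scale with both libraries (standard error 0.29, adjusted p = 0.0070) and by 2.06 against replicate 1 (adjusted p = 0.012). Against replicate 2 its value was 1.53 (adjusted p = 0.060 in edgeR's test). Under normal conditions it also rose, by 1.35 (adjusted p = 0.0097). No momilactone or phytocassane gene passed in any of the 3 fits, among 10 measured, and of 6 Bowman-Birk trypsin inhibitor genes 1 passed as higher against replicate 1 alone.

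Few of the genes that held against each ZH11 library can be given a role. Apart from OsJAZ1, 0 of the 255 belonged to a list, and the lists held 211 of all 24850 genes tested (0.849%), so few would fall in them at that share. Annotation texts came from the study's lists of genes that responded to drought in OsJAZ1-OE only or in ZH11 only, 1281 genes in all. The study drew these lists from the same series, so they are no neutral sample of genes. They gave a text for 16 of the 255, for 4 of these as expressed protein only. Among the 236 higher genes the median level was 3.48 FPKM in OsJAZ1-OE and 0.0717 FPKM in ZH11. In all 5 ZH11 libraries, under drought and normal conditions, 152 of them were under 0.5 FPKM, and 86 of these were over 1 FPKM in all 5 OsJAZ1-OE libraries. For 217 of the 236, every OsJAZ1-OE library of either condition lay above every ZH11 library. The 236 were picked for being higher in the drought libraries that enter these counts, and the counts were not made over all genes tested. The 236 genes lay on all 12 chromosomes, with 28 on chromosome 6 and 9 on chromosomes 3 and 9, and 33 were new genes that the authors added to the annotation. Low genes are among them, since 22 were under 0.5 FPKM in all 5 OsJAZ1-OE libraries.

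In 43 of the higher genes neither ZH11 drought library held a fragment. Set against a floor of 3 fragments per ZH11 library, these were at least 5.31-fold to at least 107-fold higher in OsJAZ1-OE, with a median bound of 18.4. LOC_Os11g01690 was at 8.97 and 7.26 FPKM in OsJAZ1-OE and at 0 in both ZH11 libraries, at least 107-fold higher. LOC_Os10g21970, at 9.72 and 10.7 FPKM in OsJAZ1-OE, was at least 77.0-fold higher. LOC_Os04g43090, at 32.5 and 18.4 FPKM in OsJAZ1-OE, was at least 57.2-fold higher. The sources used here do not annotate these genes. LOC_Os03g43100 was at 95.1 and 104 FPKM in OsJAZ1-OE, against 3 fragments (0.120 FPKM) in ZH11 replicate 1 and none in ZH11 replicate 2. LOC_Os10g12610 was at 355 and 333 FPKM in OsJAZ1-OE, against 16 fragments (1.38 FPKM) in ZH11 replicate 1 and none in replicate 2. Both were well expressed in OsJAZ1-OE and close to 0 in ZH11.

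Others were expressed in both genotypes. LOC_Os03g02460 was at 171 and 177 FPKM in OsJAZ1-OE, against 2.52 and 2.82 FPKM in ZH11, and rose by 6.59 on the log2 scale (SE 0.12, adjusted p = 2.3e-10 in edgeR's test). LOC_Os01g35330, annotated as a putative circumsporozoite protein precursor, a text that gives no rice function, was at 230 and 298 FPKM in OsJAZ1-OE, against 8.28 and 9.30 FPKM in ZH11. LOC_Os06g32600 was at 203 and 238 FPKM in OsJAZ1-OE, against 44.6 and 74.7 FPKM in ZH11, and rose by 1.81 on the log2 scale (adjusted p = 0.0026 in edgeR's test). The replicates of each genotype lay close together for both of the first genes, and the ZH11 replicates were further apart for the last one.

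Annotated genes that held included enzymes and receptor kinases, named here after their values were seen. LOC_Os04g14690, a flavin-containing monooxygenase (the family oxidizes small molecules and includes enzymes of auxin synthesis), was at 59.3 and 62.8 FPKM in OsJAZ1-OE, against 7.55 and 8.27 FPKM in ZH11. It rose by 2.62 on the log2 scale with both libraries (standard error 0.13, adjusted p = 4.3e-07), by 2.75 against replicate 1 and by 2.50 against replicate 2 (edgeR's test). LOC_Os11g35930, a putative chalcone synthase, the type of enzyme that opens flavonoid synthesis, was at 15.9 and 14.8 FPKM in OsJAZ1-OE, against 5.15 and 5.72 FPKM in ZH11. It rose by 1.42 (standard error 0.20, adjusted p = 0.0021 in edgeR's test). Genes annotated as receptor-like kinases, a type of protein that senses signals at the cell surface, were LOC_Os02g17710 and LOC_Os11g10290, at low levels, and the family as a whole was not counted. LOC_Os02g17710 was at 2.53 and 2.22 FPKM in OsJAZ1-OE, against 0.899 and 1.12 FPKM in ZH11, and LOC_Os11g10290 was at 2.38 and 1.80 FPKM in OsJAZ1-OE, against 0.851 and 0.643 FPKM in ZH11.

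**Figure D4:**
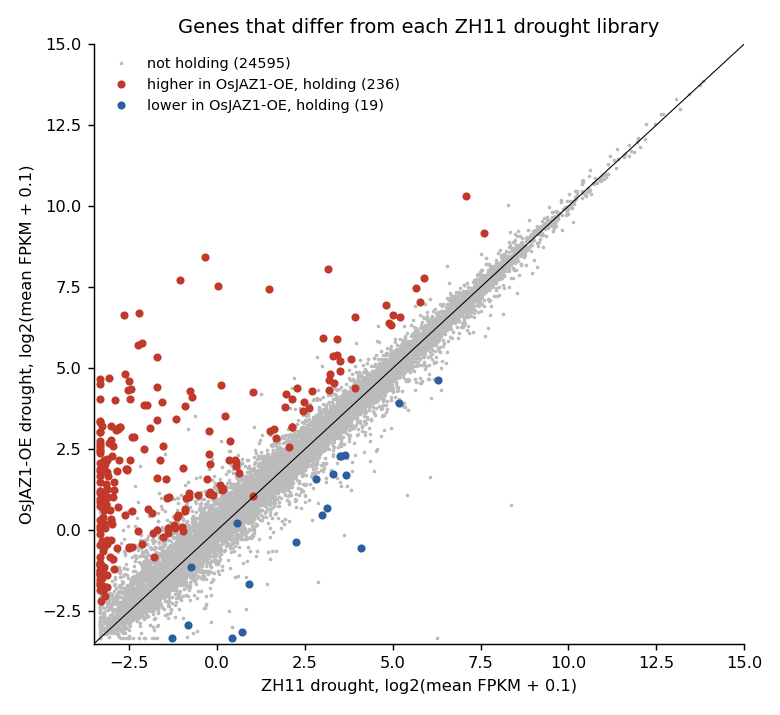
Mean level of the 24850 genes tested, as log2 of mean FPKM plus 0.1, in OsJAZ1-OE drought (vertical) and ZH11 drought (horizontal), with the line of equal values. The 236 genes higher in OsJAZ1-OE that held (red) crowd the left edge, where ZH11 is near 0, and the 19 lower genes that held (blue) are scattered below the line.

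Among the 19 genes that were lower and held, the median level was 1.28 FPKM in OsJAZ1-OE and 7.81 FPKM in ZH11. The largest decreases among the better expressed genes had no annotation in the sources used here. LOC_Os06g26270 was at 0.222 and 0.946 FPKM in OsJAZ1-OE, against 18.9 and 15.2 FPKM in ZH11, and fell by 4.50 on the log2 scale (standard error 0.31, adjusted p = 7.2e-06 in edgeR's test). LOC_Os11g38580 was at 1.79 and 1.22 FPKM in OsJAZ1-OE, against 9.73 and 7.70 FPKM in ZH11, and fell by 2.48. LOC_Os01g23710 was at 3.34 and 3.14 FPKM in OsJAZ1-OE, against 10.1 and 9.37 FPKM in ZH11, and fell by 1.69. These genes were picked among those whose libraries did not overlap between the genotypes.

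The most abundant gene that was lower and held was LOC_Os04g28420, a putative peptidyl-prolyl isomerase, a type of enzyme that helps proteins fold. It was at 24.7 and 25.0 FPKM in OsJAZ1-OE, against 83.5 and 71.3 FPKM in ZH11. It fell by 1.69 on the log2 scale with both libraries (standard error 0.27, adjusted p = 0.0056), by 1.77 against replicate 1 (adjusted p = 0.012) and by 1.61 against replicate 2 (adjusted p = 0.030 in edgeR's test). Without OsJAZ1-OE drought replicate 1 the adjusted p was 0.0612. LOC_Os11g15040, annotated as a putative benzoic or salicylic acid carboxyl methyltransferase, an enzyme type that makes volatile esters, was at 4.83 and 4.82 FPKM in OsJAZ1-OE, against 10.7 and 11.8 FPKM in ZH11. It fell by 1.19 with both libraries (adjusted p = 3.3e-04), by 1.10 against replicate 1 and by 1.28 against replicate 2 (edgeR's test).

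Some genes that held lay side by side. Within 20 kb of each other were 11 pairs, all in 1 direction within the pair, and 3 of these pairs overlapped. Since strand was not a stated part of the counting, fragments of overlapping partners, such as LOC_Os11g01690 and LOC_Os11g01700 on opposite strands, cannot be told apart. The sums of fragments and of FPKM can also part ways where transcripts of a gene differ in length. Of 210 genes that held and had fragments in both genotypes, the ratio of summed FPKM was more than 1 on the log2 scale away from the fitted fold change in 12.

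Without a fold limit, 292 genes passed as higher (1.18%) and 71 as lower (0.286%) in all 3 fits, and 49 and 50 of these were under the 2-fold limit. Several abundant genes with an annotation text were among them, chosen after their values were seen. LOC_Os01g52110, a RING and CHY zinc finger protein of a type that attaches ubiquitin, was at 133 and 142 FPKM in OsJAZ1-OE, against 221 and 216 FPKM in ZH11, and fell by 0.64 on the log2 scale (standard error 0.06, adjusted p = 1.4e-04 in edgeR's test). LOC_Os02g56900, a thioredoxin family protein of redox control, was at 159 and 198 FPKM in OsJAZ1-OE, against 286 and 292 FPKM in ZH11. LOC_Os12g38170, a putative osmotin of the stress and defence proteins, was at 137 and 164 FPKM in OsJAZ1-OE, against 223 and 273 FPKM in ZH11. They fell by 0.74 and 0.57 (adjusted p = 0.012 and 0.0073 in edgeR's test). LOC_Os09g26880, a putative aldehyde dehydrogenase, was at 54.9 and 56.1 FPKM in OsJAZ1-OE, against 76.5 and 76.2 FPKM in ZH11. In the higher direction, LOC_Os01g43270, a putative hydroquinone glucosyltransferase, was at 35.6 and 27.2 FPKM in OsJAZ1-OE, against 17.6 and 19.4 FPKM in ZH11, and LOC_Os03g31679, a putative annexin, which binds membranes in the presence of calcium, was at 111 and 100 FPKM against 80.3 and 78.0 FPKM. None of these 6 genes overlapped between the genotypes. LOC_Os02g56900, LOC_Os12g38170 and LOC_Os03g31679 each did not pass in 2 of 18 alternative fits, and LOC_Os01g43270 in 1. LOC_Os01g52110 and LOC_Os09g26880 passed in all 18.

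Of the 376 genes called higher, 42 kept the call against replicate 1 but not replicate 2, 16 against replicate 2 but not replicate 1, and 82 against neither alone, and of the 54 called lower these numbers were 14, 8 and 13. A lost call did not always mean a small difference. LOC_Os12g43380 was at 80.1 and 78.6 FPKM in OsJAZ1-OE, against 21.6 and 25.8 FPKM in ZH11, and its log2 fold change of 1.62 against replicate 2 had an adjusted p of 0.052 in edgeR's test. LOC_Os03g42600 was at 142 and 110 FPKM in OsJAZ1-OE, against 69.2 and 52.5 FPKM in ZH11, and its value of 0.88 against replicate 1 was under the fold limit (adjusted p = 0.025 in edgeR's test). LOC_Os04g54210 was at 244 and 227 FPKM in OsJAZ1-OE, against 402 and 373 FPKM in ZH11, and passed against neither library alone (adjusted p = 0.12 and 0.11 in edgeR's test).

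The genes were also compared by a rule with no model. In every pair of an OsJAZ1-OE with a ZH11 drought library, 273 of 21155 genes with a mean of at least 1 FPKM in either genotype were at least 2-fold higher in OsJAZ1-OE (1.29%) and 58 at least 2-fold lower (0.274%), on log2 of FPKM plus 0.1. Of these, 163 higher and 14 lower genes also held in the 3 fits.

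The 19 genes that passed as lower against replicate 1 alone and as higher against replicate 2 alone included OsbHLH148, OsDREB1A, OsDREB1B, OsNAC3 and OsWRKY24. Others of these 19 were chosen after their values were seen. LOC_Os02g33680, a U-box protein of the ubiquitin system, was at 27.8 and 22.6 FPKM in OsJAZ1-OE, against 121 and 8.92 FPKM in ZH11. LOC_Os01g64470, annotated as a harpin-induced protein of defence, was at 24.5 and 21.6 FPKM in OsJAZ1-OE, against 107 and 4.30 FPKM in ZH11. LOC_Os09g28440, a protein with the AP2 domain of DREB and ERF factors, was at 4.53 and 6.21 FPKM in OsJAZ1-OE, against 45.0 and 0.417 FPKM in ZH11. In each of these the OsJAZ1-OE libraries lay close together and between the ZH11 libraries, and no gene passed in the reverse combination.

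Most of the genes that held under drought also differed without it. Under normal conditions 334 genes were called higher (1.34%) and 60 lower (0.241%) in OsJAZ1-OE (583, 2.35%, and 369, 1.48%, with no fold limit), and of the genes that held under drought 212 of 236 higher (89.8%) and 14 of 19 lower (73.7%) were called in the same direction. The drought and normal comparisons share no library, although they share the estimate of spread. LOC_Os04g14690, the monooxygenase gene, rose by 3.20 on the log2 scale under normal conditions (adjusted p = 1.9e-08 in edgeR's test) beside 2.62 under drought. The remaining 24 higher genes all had a fitted value above 0 under normal conditions, and 15 of them passed there below the fold limit.

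Of the 5 lower genes that were not called under normal conditions, 3 had a fitted value below 0 there, 1 passed there as lower below the fold limit and 0 passed as higher. LOC_Os04g28420, the isomerase gene, differed by 0.02 there (adjusted p = 0.98), and LOC_Os03g60560, with no annotation in the sources used here, by −0.23 (adjusted p = 0.72), beside a value of −1.302 under drought. LOC_Os03g60560 was at 18.3 and 12.2 FPKM in OsJAZ1-OE, against 34.8 and 37.0 FPKM in ZH11, under drought. Among the genes with smaller decreases, LOC_Os01g52110 and LOC_Os09g26880 differed by −0.08 (adjusted p = 0.50) and −0.00 (adjusted p = 0.98) under normal conditions, all from edgeR's test. Like LOC_Os04g28420, these genes have annotation texts, so they lie on the study's lists of genes that responded to drought in a single genotype. That choice favours genes whose genotype difference changes between conditions. The difference between conditions itself passed for 0 genes in edgeR's test at an adjusted p under 0.05. Its lowest adjusted p was 0.0925, 2097 genes had an unadjusted p under 0.05, and the same difference passed for 106 genes in DESeq2 and 5 in limma.

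**Figure D5:**
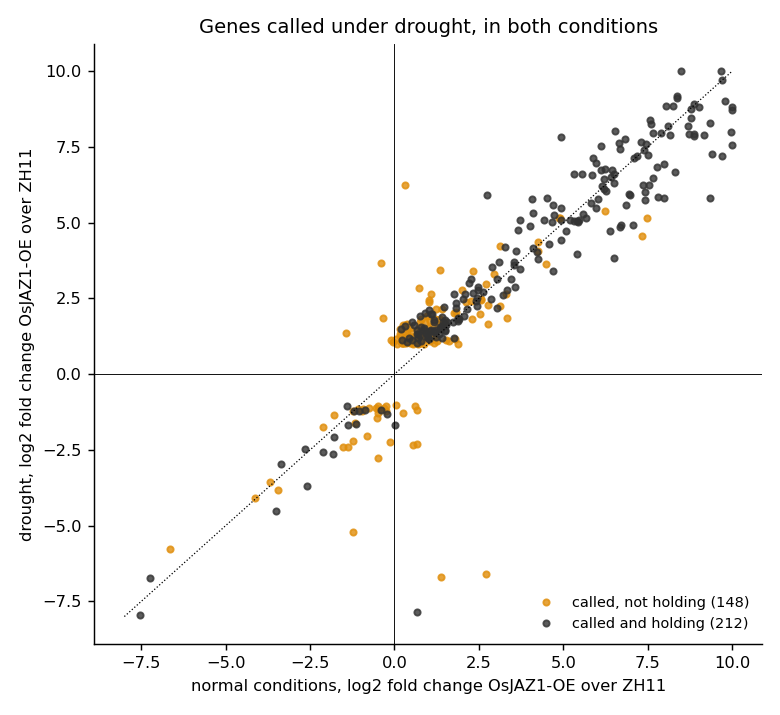
Log2 fold change of OsJAZ1-OE over ZH11 under drought (vertical) and under normal conditions (horizontal) for 360 genes called under drought, with values beyond −8 or 10 at the edge and the dotted line of equal values, and with 70 called genes at 0 fragments in both ZH11 drought libraries left out. The 212 genes drawn that held (black) lie mostly along the line, and the 148 that did not hold (orange) include most of the points close to 0 under normal conditions.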

How the data were processed

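RNA from shoots was made into libraries with the NEBNext Ultra kit and sequenced, and the authors processed the reads on the BMKCloud platform. The submitters' processing notes name TopHat2, Picard, SAMtools 0.1.18 and GATK without their roles, and no source used here names the genome build. The expected counts (estimated fragments per transcript, 101273 transcripts of 55689 gene IDs) were deposited by the authors on a scale of their own. Of the sums per gene below 1000 fragments, 89.6 to 90.8% were a whole number of steps of 0.884 to 1.19 (tolerance 0.01), and divided by that step the totals were 28610377 to 37795949 per library. FPKM values were computed by the authors from transcript length and mapped fragments.

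Per gene, the values of its transcripts were added up, and the counts were rounded. In edgeR 4.0.16 (R 4.3.3), 24850 genes passed filterByExpr, TMM factors were taken, and a quasi-likelihood model took all 10 libraries with 1 mean for each group, with Benjamini-Hochberg adjustment over all genes tested. The fit was repeated without each ZH11 drought library. A call needed an adjusted p under 0.05 and a fold change of at least 2. An exact permutation test of 2 against 2 libraries cannot go below a two-sided p of 0.333 and was not used. Simulated counts were scored by adjusted p under 0.05 alone, with no fold limit, so these shares are not those of a call. Apart from the changed genes, all simulated libraries shared 1 mean per gene, so no simulated group held a library that stood apart. On such counts for 24529 genes the model recovered 82% of 2-fold and 95% of 4-fold changes with 11 genes passing falsely. Against replicate 1 alone (24697 genes) it recovered 66% and 92%, and against replicate 2 alone (24693 genes) 69% and 92%.

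Alternatives were DESeq2 1.42.0, limma 3.58.1 on log2 of FPKM plus 0.1, RLE size factors, no filter, at least 50 counts, the 4 drought libraries alone, the step divided out, the replicate number as a block and each library left out. The genes named are OsJAZ1 and those the study names; among genes that held, with at least 5 FPKM and no overlap, those with the largest changes, the most abundant and those of lowest adjusted p; 2 of each list; and the most abundant that did not hold. The members and lists were chosen with earlier results of these data known. The loci of the lists come from general knowledge of rice; 125 names lay at a matching place of the RefSeq table (ASM3414082v1), 97 were not in it, 4 lay elsewhere and 4 were without a locus. OsCCD1 was not used here. Annotation texts come from the study's supplementary lists of genes that responded to drought in OsJAZ1-OE only or in ZH11 only.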

Additional observations from a re-analysis of the deposited data

Results flagged for a closer look

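Of 24850 genes tested, 5 passed in opposite directions under drought and under normal conditions, at an adjusted p under 0.05 in edgeR's test. Among the 5, 1 gene called higher and 1 called lower under drought, at the 2-fold limit, had the opposite call under normal conditions. Those genes are not described here. The other 3 are named below and were chosen after their values were seen. For none of them did the difference between conditions pass in edgeR's test once adjusted over all genes.

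LOC_Os04g49210, a putative naringenin dioxygenase of flavonoid synthesis, was at 2.70 and 2.39 FPKM in OsJAZ1-OE, against 5.71 and 5.34 FPKM in ZH11, under drought. Under normal conditions it was at 9.74, 14.7 and 16.5 FPKM in OsJAZ1-OE, against 8.80, 8.54 and 8.77 FPKM in ZH11. The drought value less the normal value on the log2 scale was −1.66 (adjusted p = 0.094 in edgeR's test). LOC_Os05g33900, annotated as an auxin-induced protein, was at 24.6 and 19.6 FPKM in OsJAZ1-OE, against 15.9 and 13.0 FPKM in ZH11, under drought, and at 37.7, 35.8 and 30.5 FPKM in OsJAZ1-OE, against 48.8, 44.8 and 46.6 FPKM in ZH11, under normal conditions. The difference was 1.06 (adjusted p = 0.13). LOC_Os09g13470 was at 5.28 and 4.48 FPKM in OsJAZ1-OE, against 3.72 and 3.55 FPKM in ZH11, under drought, and at 16.9, 17.6 and 16.6 FPKM in OsJAZ1-OE, against 22.3, 21.7 and 22.7 FPKM in ZH11, under normal conditions, a difference of 0.87 (adjusted p = 0.0925 in edgeR's test). No library of one genotype overlapped the other in any of these genes within a condition. The calls under drought were easily lost. LOC_Os09g13470 passed against neither ZH11 library alone (adjusted p = 0.12 against replicate 1 and 0.093 against replicate 2) and did not pass in 11 of 18 alternatives. LOC_Os05g33900 did not pass against replicate 1 alone (adjusted p = 0.14) or in 8 of the 18, and LOC_Os04g49210 did not pass against replicate 2 alone (adjusted p = 0.081 in edgeR's test) or in 3 of the 18.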

How the results depend on the processing

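The counts of higher genes moved less than those of lower genes. With both ZH11 libraries, leaving out 1 library gave 266 to 371 called higher and 30 to 193 called lower, the last without ZH11 drought replicate 2. Genes called lower numbered 31 with limma, 82 with no filter and 27 with the 4 drought libraries alone. Genes passing with no fold limit numbered 343 to 635 higher and 90 to 603 lower without 1 library, 293 higher and 63 lower with the 4 drought libraries alone, and 659 lower with DESeq2, 176 with limma and 425 with no filter. Fits on the 4 drought libraries alone gave 88 higher and 47 lower against replicate 1, 40 and 2 against replicate 2, and 40 and 2 that held. With limma 23 were lower against replicate 2 and 12 lower genes held. Without 1 library, 253 to 321 genes were called higher and 134 to 198 lower against replicate 1, 216 to 294 and 33 to 68 against replicate 2, and 196 to 244 and 16 to 22 held. Under normal conditions these ranges were 277 to 336 and 31 to 59 (36 lower with the filter of at least 50 counts), and in both conditions 221 to 272 and 16 to 22 (16 lower with limma). The difference between conditions passed for 106 genes with DESeq2, 5 with limma and 45 with no filter, and for 0 to 123 without 1 library, the highest without ZH11 drought replicate 2. The rule of 2-fold in every pair gave 501 higher and 145 lower with no minimum FPKM, and 31 lower on log2 of FPKM plus 1. The alternatives for normal conditions and for the difference were added after seeing the data. Heat shock genes passing as lower numbered 8 with DESeq2.

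Without ZH11 drought replicate 1 the log2 fold change turned positive for 18 of 145 named genes tested, and for 5 of them the positive value passed, so that without 1 library it ranged over −2.58 to 0.85 for OsbHLH148 (LOC_Os03g53020), −2.77 to 3.08 for OsDREB1A (LOC_Os09g35030), −3.11 to 3.26 for OsDREB1B (LOC_Os09g35010), −0.80 to 0.68 for OsNAC3 (LOC_Os07g12340) and −1.08 to 1.34 for OsWRKY24 (LOC_Os01g61080). Direction and side of the threshold were kept by 137 of the 145 with DESeq2 and by 127 with the 4 drought libraries alone. This was so for 111 when ZH11 drought replicate 1 was left out, for 107 when its replicate 2 was, and for 123 when replicate 1 of OsJAZ1-OE under drought was. The sign turned, with no pass, for 6 genes with limma, 1 with the replicate block, 7 when ZH11 drought replicate 2 was left out and 2 when either library of OsJAZ1-OE under drought was. Same-numbered drought libraries deviated together at a correlation of −0.008 over 21052 genes, and under normal conditions at −0.012 to 0.132. With so few libraries per group, these correlations cannot show whether the numbers pair the samples. With the replicate number as a block, 379 genes were called higher and 57 lower, 763 and 353 passed, and 231 and 25 held.

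The limits are few libraries and few fragments. Each drought group had 2 libraries, and 43 of the genes that held had no ZH11 drought fragment. Against a single ZH11 library, simulated 2-fold changes passed by the adjusted p less often.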
